A study of Mus musculus with 6 samples.

Results

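Classic p53 target genes are genes that the transcription factor p53 is known to switch on after stress. A list of 31 of them was examined in mouse regulatory T cells (Treg), which express the transcription factor Foxp3 and hold immune responses in check. Foxp3 itself differed widely between the groups compared here, as given below. A gene was measured where at least 1 probe set carried its symbol and no other, and its brightest probe set by the mean of all arrays was used. In this way 28 of the 31 genes were measured, among 12393 genes in all. Bax, Eda2r and Gdf15 had no such probe set and are not analysed here. The measured genes had known roles in cell cycle arrest and growth control (7 genes), apoptosis (12), DNA repair (5) or metabolism and signalling (4).

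RNA came from 6 samples of CD4+YFP+ cells sorted from mice of C57BL/6 background, with 1 array each. In 3 samples titled USP7, the series text describes floxed Usp7 with Foxp3cre, while their genotype field reads fl-HDAC11/Foxp3cre. The 3 samples titled B6_WT have the genotype Foxp3cre, so Foxp3cre is common to both groups. They are called USP7-titled and control arrays here, because the labels disagree on the floxed allele. A Cre named for Foxp3 would act where Foxp3 is expressed. The sources used here do not give age or sex, or say that each sample came from its own animal. The p-values therefore measure only how these samples vary, which may be technical.

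In unstressed cells p53 is kept scarce because the ligase Mdm2 tags it with ubiquitin for destruction. Usp7 is an enzyme that removes ubiquitin, and both Mdm2 and p53 are among its known substrates. Once p53 accumulates it raises genes that halt the cell cycle, genes that trigger cell death, genes that repair DNA, and genes that limit its own activity. In T cells, p53 is known for curbing proliferation and for removing cells with damaged DNA.

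Levels below are log2 expression per probe set as deposited, and a change is the mean of the USP7-titled arrays minus that of the control arrays, also in log2 units, given with its standard error (SE). Changes were tested with limma over all genes, and a gene passed where its Benjamini-Hochberg adjusted p was under 0.05. Usp7 read 10.54, 10.69 and 10.76 in USP7-titled arrays and 11.69, 11.73 and 11.61 in control arrays, which is a change of -1.01 (SE 0.07, limma adjusted p = 1.32e-06). Hdac11 changed by -0.58 (SE 0.16, limma adjusted p = 0.019 over all probe sets) in the brighter of its 2 probe sets. The dimmer one overlapped between groups and did not pass (-0.22, limma adjusted p = 0.354 over all probe sets). The brighter one read only 5.65 to 6.04 in USP7-titled arrays and 6.20 to 6.65 in control arrays, so low signal limits both. Of 8 Treg and T cell markers 6 fell (75%, against 15.9% of all genes). Foxp3, which Treg are known to express, read 6.85, 7.29 and 6.87 in USP7-titled arrays and 12.82, 13.13 and 12.99 in control arrays. It fell by 5.98, to 1.59% of the control level. Ctla4 fell by 0.36 and Il2ra by 0.17, and Cd4 did not pass at 0.01. The 3 USP7-titled arrays had the male pattern of Xist (-7.20) and Eif2s3y (5.65) and the 3 control arrays the female pattern, and for no result here can group be told apart from sex. Array medians ran from 7.91 to 7.96 on the log2 scale. As a measure of RNA quality, the Gapdh control probe set at the 3' end exceeded that at the 5' end by 0.907 to 0.986 in USP7-titled arrays and by 0.989 to 1.23 in control arrays. The same difference for the actin control probe sets overlapped between groups, at -0.180 to -0.155 in USP7-titled arrays and -0.286 to -0.151 in control arrays.

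Most of the p53 target genes were higher in USP7-titled arrays, but not all. Of the 28 measured, 16 rose, 5 fell and 7 did not pass. The median change was 0.59, against -0.05 for all genes. Among all genes 32.9% passed, 17% as higher and 15.9% as lower, so the share of the list that rose (57.1%) was above that background and the share that fell (17.9%) was close to it. Larger changes were on one side: 10 of the 28 rose at least 2-fold, against 3.12% of all genes, and 1 fell at least 2-fold, against 1.23%. The groups did not overlap in 22 of the 28 genes, against 45.6% of all genes, and the USP7-titled arrays were the higher ones in 17 of these (20.9% of all genes) and the lower ones in 5 (24.7% of all genes). With arrays scaled to the hybridization spike controls, the median of all genes moved to 0.11 and 18 of the 28 genes rose while 2 fell, Sesn1 and Ddb2. With that scaling 2968 of all 12393 genes were higher and 944 lower, against 2102 and 1976 as deposited. The share of all called genes that were higher was 51.5% as deposited and 75.9% with that scaling.

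**Figure D1:**
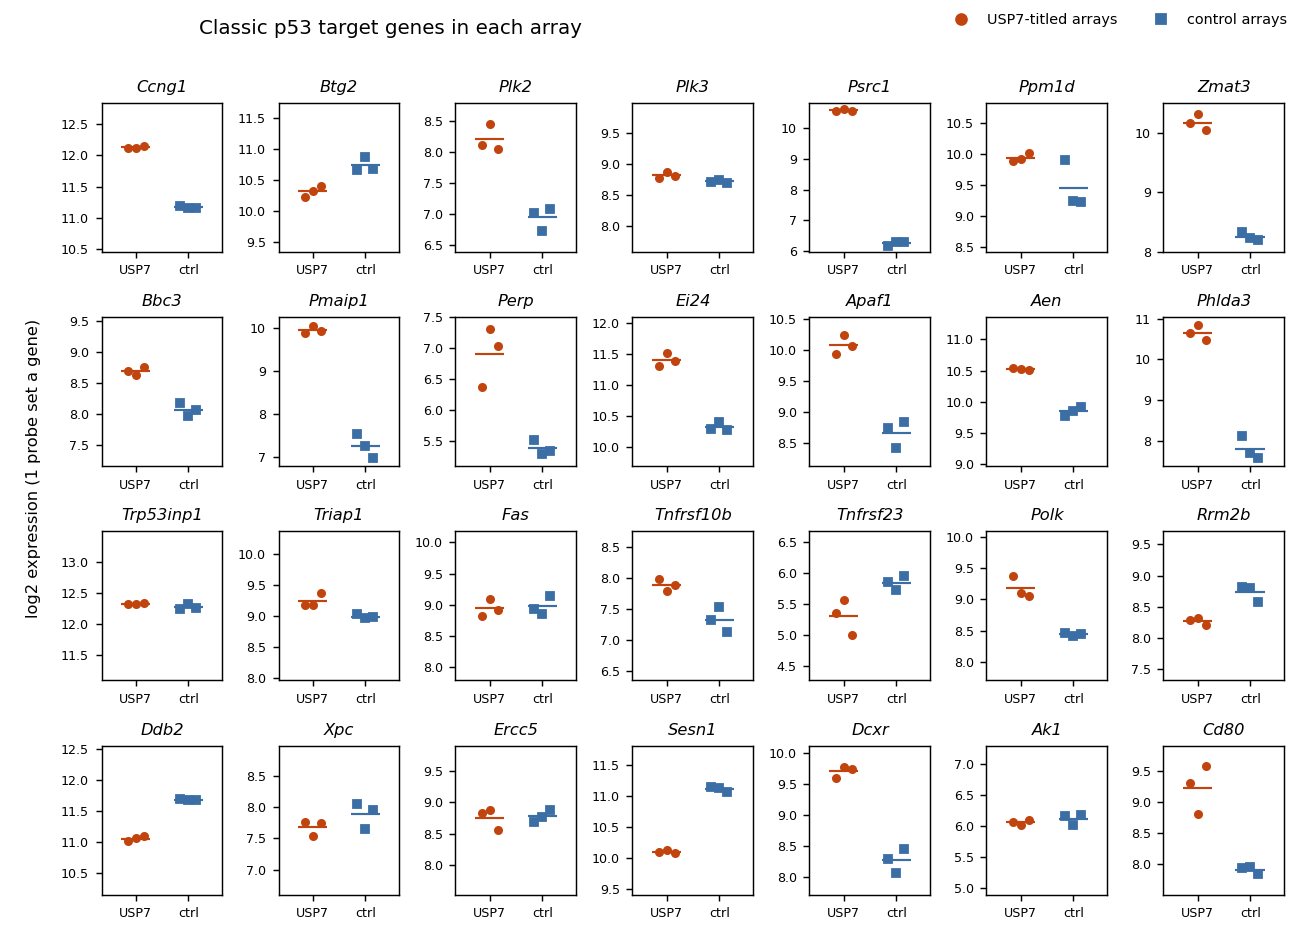
Log2 expression of the 28 measured p53 target genes in each array, with 3 USP7-titled arrays on the left and 3 control arrays on the right of each panel and the group mean as a line. Psrc1, Phlda3 and Pmaip1 show the widest gaps between groups, Sesn1 and Ddb2 are lower in every USP7-titled array, and Fas, Ercc5 and Ak1 overlap; each panel spans its own range of the log2 axis.

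p53 binds DNA as 4 subunits at sites built of paired half-sites of 10 letters each, and these sites often lie in introns or far from the start of the gene. RefSeq promoter windows (GRCm38.p6), which run from 250 bases before to 50 after the start, were matched to 20 of the 28 measured genes. An exact p53 half-site consensus, which reads the same on both strands, was found in a window of 6 of these 20 genes (30% against 9.55% of all 27025 genes with a window): Aen, Ccng1, Ei24, Polk, Ppm1d and Sesn1. A full site of 2 adjoining half-sites with at most 2 mismatches was in 0 of the 20 genes and in 0.158% of all windows. The windows below are shown because they pair 3 rises with the furthest fall and the largest rise, written 5′ to 3′ on the strand of the gene with any half-site in capitals; a match describes the letters only.
Ccng1, chr11:40755237-40755536, minus strand: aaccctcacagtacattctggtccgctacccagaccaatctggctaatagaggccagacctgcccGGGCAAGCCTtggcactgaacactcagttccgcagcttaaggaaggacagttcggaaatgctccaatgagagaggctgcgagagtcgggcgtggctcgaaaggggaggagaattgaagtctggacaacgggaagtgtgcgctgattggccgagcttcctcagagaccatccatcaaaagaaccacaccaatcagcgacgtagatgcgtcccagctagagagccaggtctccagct
Aen, chr7:78895808-78896107, plus strand: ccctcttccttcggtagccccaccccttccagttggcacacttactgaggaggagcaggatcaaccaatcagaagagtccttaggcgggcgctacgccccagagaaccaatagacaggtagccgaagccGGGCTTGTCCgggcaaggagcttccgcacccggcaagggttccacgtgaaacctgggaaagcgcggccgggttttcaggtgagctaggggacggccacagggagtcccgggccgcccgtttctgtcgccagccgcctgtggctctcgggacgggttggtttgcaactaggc
Ei24, chr9:36797285-36797584, minus strand: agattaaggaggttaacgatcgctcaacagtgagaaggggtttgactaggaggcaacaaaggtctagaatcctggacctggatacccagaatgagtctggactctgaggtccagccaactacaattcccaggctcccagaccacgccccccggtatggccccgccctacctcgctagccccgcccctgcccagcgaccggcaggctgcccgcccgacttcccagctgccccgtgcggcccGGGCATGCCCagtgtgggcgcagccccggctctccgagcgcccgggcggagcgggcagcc
Sesn1, chr10:41887189-41887488, plus strand: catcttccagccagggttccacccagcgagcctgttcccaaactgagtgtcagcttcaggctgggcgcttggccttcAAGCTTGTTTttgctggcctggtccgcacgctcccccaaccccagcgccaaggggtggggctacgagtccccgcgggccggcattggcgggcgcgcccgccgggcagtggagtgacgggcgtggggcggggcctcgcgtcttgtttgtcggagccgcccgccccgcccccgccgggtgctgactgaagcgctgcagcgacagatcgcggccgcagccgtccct
Psrc1, chr3:108383554-108383853, plus strand: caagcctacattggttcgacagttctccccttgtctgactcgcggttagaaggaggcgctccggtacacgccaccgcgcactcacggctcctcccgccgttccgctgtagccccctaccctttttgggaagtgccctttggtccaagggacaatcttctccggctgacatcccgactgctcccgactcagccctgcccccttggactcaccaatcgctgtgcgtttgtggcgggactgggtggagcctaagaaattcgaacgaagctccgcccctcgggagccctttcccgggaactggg
The half-site began 185 bases before the start in Ccng1, 121 in Aen, 10 in Ei24 and 173 in Sesn1. Both windows of Psrc1 and the single window of Phlda3 held no exact half-site, although these genes rose furthest, and Sesn1, which has one, fell. Of the genes with a window, 5 of 12 that rose, 1 of 3 that fell and 0 of 5 that did not pass held a half-site. The fall among these is Sesn1, whose other window held none. Whether a half-site goes with the direction of change was not tested. Genes without a matched window include the rises Pmaip1, Zmat3, Perp and Tnfrsf10b and the falls Ddb2 and Rrm2b.

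Among the genes of arrest and growth control, 5 of 7 rose (71.4%), 1 fell (14.3%) and 1 did not pass (median change 0.96). Over all genes 17% were higher and 15.9% lower. Psrc1, a microtubule-associated protein of the mitotic spindle, read 10.57, 10.65 and 10.56 in USP7-titled arrays and 6.16, 6.28 and 6.29 in control arrays. The lowest USP7-titled array lay 4.26 above the highest control array on the log2 scale. The change was 4.35 (SE 0.11, limma adjusted p = 7.36e-10), or 20.4-fold, and ranked 4 among the rises of all genes. Its other probe sets changed by 3.34 and 0.89, and averaging the 3 gave 2.86, so the size depends on the probe set while the direction does not. The probe set used was the brightest only through its USP7-titled arrays. In control arrays the other probe sets were brighter, with means of 6.66 and 6.36 against 6.24. The fold and rank given here therefore rest on a choice that the change itself affected.

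Zmat3, a zinc finger protein that binds RNA, read 10.17, 10.32 and 10.05 in USP7-titled arrays and 8.33, 8.23 and 8.19 in control arrays, a rise of 1.93 (SE 0.10, limma adjusted p = 2.15e-07). Plk2, a polo-like kinase that acts in centriole duplication and the stress response, read 8.12, 8.45 and 8.04 in USP7-titled arrays and 7.02, 6.73 and 7.09 in control arrays, a rise of 1.26 (SE 0.15, limma adjusted p = 6.72e-05). In both genes every USP7-titled array was above every control array. The related kinase gene Plk3 was at 8.77, 8.87 and 8.80 in USP7-titled arrays and 8.71, 8.74 and 8.69 in control arrays (change 0.10, 95% interval -0.12 to 0.32, limma adjusted p = 0.489). The Plk3 groups did not overlap, with a gap of 0.026, so Plk3 is among the 17 genes counted above as not overlapping and higher. Whether Plk2 and Plk3 differ in their change was not tested.

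Ccng1 encodes cyclin G1, which recruits a phosphatase to Mdm2. It read 12.12, 12.12 and 12.15 in USP7-titled arrays and 11.18, 11.15 and 11.16 in control arrays, a rise of 0.96 (SE 0.05, limma adjusted p = 9.2e-08). The arrays of each group almost coincided, so a change just under 2-fold stood far outside the spread. Ppm1d, the phosphatase Wip1 that switches p53 signalling off again, was far less firm. It read 9.89, 9.93 and 10.02 in USP7-titled arrays and 9.90, 9.24 and 9.24 in control arrays, so control replicate 1 lay within the USP7-titled range. Its rise of 0.48 passed (SE 0.16, limma adjusted p = 0.0353) but did not pass without any one of USP7-titled replicates 1, 2 and 3 or control replicates 2 and 3 (limma adjusted p = 0.0602 to 0.138), and without control replicate 1 it was 0.70. It also did not pass in limma with array weights (adjusted p = 0.0556) or without the trend (adjusted p = 0.0753).

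Btg2, an antiproliferative protein that promotes decay of messenger RNA, was the gene of this role that fell. It read 10.22, 10.33 and 10.41 in USP7-titled arrays and 10.66, 10.87 and 10.69 in control arrays, changing by -0.42 (SE 0.08, limma adjusted p = 0.00283). The groups did not overlap, but with spike scaling the value was -0.26 and did not pass (limma adjusted p = 0.0862). The other probe set of Btg2 was at -0.32 and did not pass (limma adjusted p = 0.0511 over all probe sets).

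**Figure D2:**
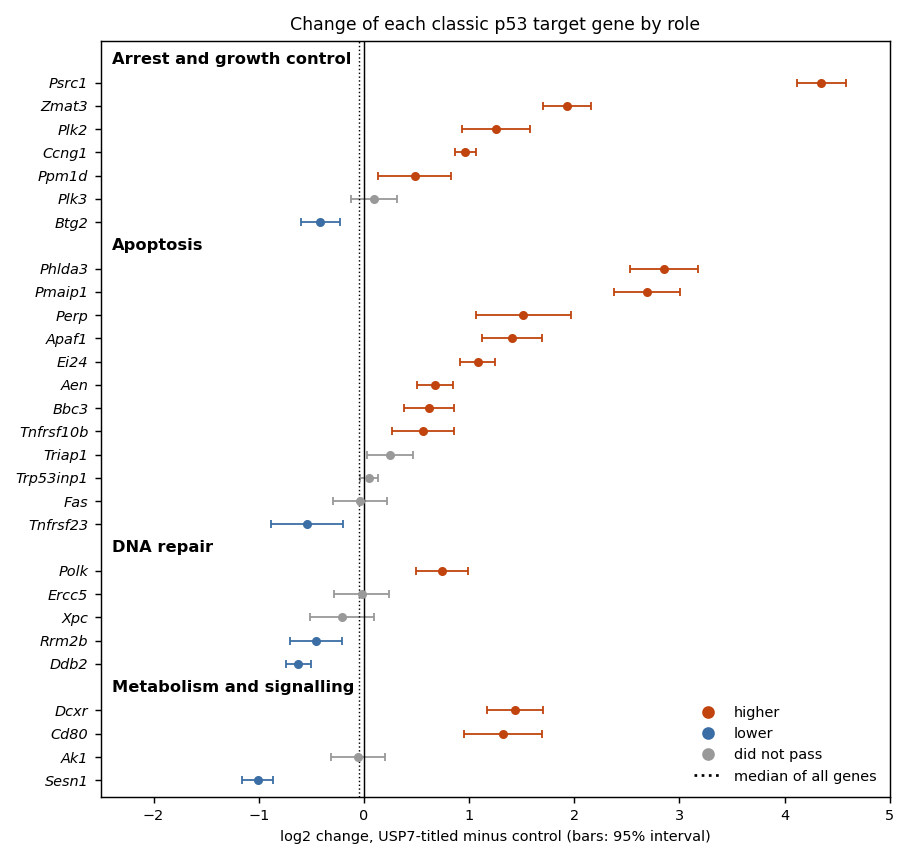
Log2 change, USP7-titled minus control, of each of the 28 measured p53 target genes with its 95% interval, grouped by role. Rises dominate among arrest and apoptosis genes, whereas DNA repair holds 1 rise and 2 falls; the dotted line marks the median of all genes, -0.05.

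Among the apoptosis genes 8 of 12 rose (66.7%), 1 fell (8.33%) and 3 did not pass (median change 0.65). The shares over all genes were 17% higher and 15.9% lower. The rises include 3 genes of the mitochondrial route to cell death. Pmaip1 encodes Noxa and Bbc3 encodes Puma, small proteins that neutralise survival members of the BCL-2 family. Pmaip1 read 9.87, 10.06 and 9.93 in USP7-titled arrays and 7.54, 7.27 and 6.99 in control arrays, a rise of 2.69 (SE 0.14, limma adjusted p = 1.67e-07) or 6.46-fold. Bbc3 rose by 0.62 (SE 0.11, limma adjusted p = 0.0012), with 8.63 to 8.76 in USP7-titled arrays and 7.98 to 8.18 in control arrays. Apaf1, the scaffold on which released cytochrome c activates caspases, read 9.93, 10.24 and 10.06 in USP7-titled arrays and 8.75, 8.42 and 8.84 in control arrays, a rise of 1.41 (SE 0.13, limma adjusted p = 1.07e-05). No array of one group reached the other group in any of these genes.

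Phlda3, which blocks the survival kinase Akt at the membrane, read 10.64, 10.84 and 10.46 in USP7-titled arrays and 8.11, 7.71 and 7.57 in control arrays, a rise of 2.85 (SE 0.15, limma adjusted p = 1.62e-07) or 7.22-fold. It ranked 38 among the rises of all genes and Pmaip1 ranked 46. Perp, a membrane protein linked to cell death and to desmosomes, read 6.37, 7.30 and 7.03 in USP7-titled arrays and 5.52, 5.30 and 5.34 in control arrays, a rise of 1.52 (SE 0.20, limma adjusted p = 0.000187). USP7-titled replicate 1 was the lowest of its group in Perp, and the SD of that group was 0.48 against 0.12 among control arrays. Ei24, a protein of the endoplasmic reticulum with a role in autophagy, read 11.30, 11.52 and 11.39 in USP7-titled arrays and 10.29, 10.40 and 10.27 in control arrays, a rise of 1.08 (SE 0.08, limma adjusted p = 1.34e-06). Aen, a nuclease that degrades DNA in dying cells, rose by 0.68 (SE 0.08, limma adjusted p = 5.51e-05), with 10.50 to 10.55 in USP7-titled arrays and 9.78 to 9.92 in control arrays.

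Of the TRAIL and Fas receptor genes 1 rose, 1 fell and 1 did not pass. Tnfrsf10b, the mouse receptor for the death ligand TRAIL, rose by 0.56 (SE 0.13, limma adjusted p = 0.00739), with 7.80 to 7.98 in USP7-titled arrays and 7.13 to 7.54 in control arrays. Its other probe set rose by 1.18, and the mean of both by 0.87. Fas, the receptor for Fas ligand, read 8.82, 9.08 and 8.92 in USP7-titled arrays and 8.93, 8.86 and 9.14 in control arrays. Its groups overlapped and its change was -0.04 (95% interval -0.29 to 0.22, limma adjusted p = 0.841). Tnfrsf23, a mouse decoy receptor for TRAIL, read 5.36, 5.56 and 4.999 in USP7-titled arrays and 5.85, 5.74 and 5.95 in control arrays, changing by -0.54 (SE 0.16, limma adjusted p = 0.0204). That fall did not pass without USP7-titled replicate 3 (adjusted p = 0.063), control replicate 1 (0.0611) or control replicate 3 (0.0731) in limma, nor with spike scaling (limma adjusted p = 0.0942).

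The remaining apoptosis genes did not pass. Trp53inp1, which promotes p53-dependent death and autophagy, read 12.31, 12.32 and 12.33 in USP7-titled arrays and 12.25, 12.31 and 12.26 in control arrays (change 0.05, 95% interval -0.04 to 0.13). Triap1, which protects cells from death through its part in mitochondrial lipid transfer, was at 9.17, 9.18 and 9.36 in USP7-titled arrays and 9.02, 8.96 and 8.98 in control arrays (change 0.25, limma adjusted p = 0.0787). The Triap1 groups did not overlap, and with spike scaling its change was 0.41 and passed (limma adjusted p = 0.0164). Trp53inp1 also passed with that scaling, at 0.21 (limma adjusted p = 0.0269).

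DNA repair genes had 1 rise (20%), 2 falls (40%) and 2 genes that did not pass, with a median change of -0.21. Over all genes 17% were higher and 15.9% lower, so the share of repair genes that rose was close to that background. Polk, a polymerase that copies past damaged bases, rose by 0.74 (SE 0.11, limma adjusted p = 0.000451), with 9.06 to 9.38 in USP7-titled arrays and 8.41 to 8.46 in control arrays. Ddb2, which recognises ultraviolet damage for nucleotide excision repair, read 11.02, 11.06 and 11.09 in USP7-titled arrays and 11.69, 11.67 and 11.68 in control arrays, changing by -0.62 (SE 0.05, limma adjusted p = 6.16e-06). Every USP7-titled array was lower than every control array, at 64.9% of the control level, and the other Ddb2 probe set changed by -0.71. Rrm2b, the p53-induced subunit of ribonucleotide reductase, read 8.29, 8.32 and 8.21 in USP7-titled arrays and 8.82, 8.80 and 8.58 in control arrays, changing by -0.46 (SE 0.11, limma adjusted p = 0.00855). The Rrm2b groups did not overlap, but with spike scaling its change was -0.30 and did not pass (limma adjusted p = 0.0697).

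Xpc and Ercc5 act beside Ddb2 in nucleotide excision repair, Xpc in finding the lesion and Ercc5 in cutting the strand. Their groups overlapped. Xpc ran from 7.53 to 7.77 in USP7-titled arrays and from 7.65 to 8.05 in control arrays (change -0.21, 95% interval -0.51 to 0.10, limma adjusted p = 0.286). Ercc5 ran from 8.55 to 8.87 in USP7-titled arrays and from 8.68 to 8.88 in control arrays (change -0.02, 95% interval -0.29 to 0.24, limma adjusted p = 0.906).

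In metabolism and signalling 2 of 4 genes rose (50%), 1 fell (25%) and 1 did not pass. The shares over all genes were 17% higher and 15.9% lower. Sesn1 encodes sestrin 1, which restrains the growth kinase complex mTORC1 under stress. It read 10.10, 10.13 and 10.08 in USP7-titled arrays and 11.14, 11.14 and 11.06 in control arrays. All USP7-titled arrays lay together at about the same level, well below all control arrays. The change was -1.01 (SE 0.07, limma adjusted p = 9.69e-07), which left 49.7% of the control level and was the largest fall of the list. Its other probe sets changed by -0.78 and -1.16.

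Dcxr, an enzyme that reduces dicarbonyls and xylulose, read 9.60, 9.77 and 9.73 in USP7-titled arrays and 8.28, 8.06 and 8.46 in control arrays, a rise of 1.43 (SE 0.12, limma adjusted p = 6.1e-06). Cd80, a costimulatory ligand of CD28 and CTLA4, read 9.31, 8.81 and 9.57 in USP7-titled arrays and 7.93, 7.95 and 7.84 in control arrays, a rise of 1.32 (SE 0.17, limma adjusted p = 0.00013). The groups did not overlap in either gene, and USP7-titled replicate 2 was the lowest of its group in Cd80. The adenylate kinase gene Ak1 overlapped between groups, at 6.02 to 6.10 in USP7-titled arrays and 6.02 to 6.18 in control arrays (change -0.06, 95% interval -0.32 to 0.20).

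Several probe sets reported the same gene in 12 of the 28 genes. In 10 of these 12 all probe sets gave the same call, and in 11 the same sign. The exceptions in call were Aen, whose dimmest probe set did not pass (0.36, limma adjusted p = 0.138 over all probe sets), and Btg2. Over the 46 probe sets of the list, 27 were higher, 8 lower and 11 did not pass, against 16.2% higher and 17.1% lower over all probe sets. Sizes varied more than calls: Ccng1 changed by 0.96, 1.25 and 1.60 by its 3 probe sets, and Cd80 by 0.60 to 1.90 by its 4.

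**Figure D3:**
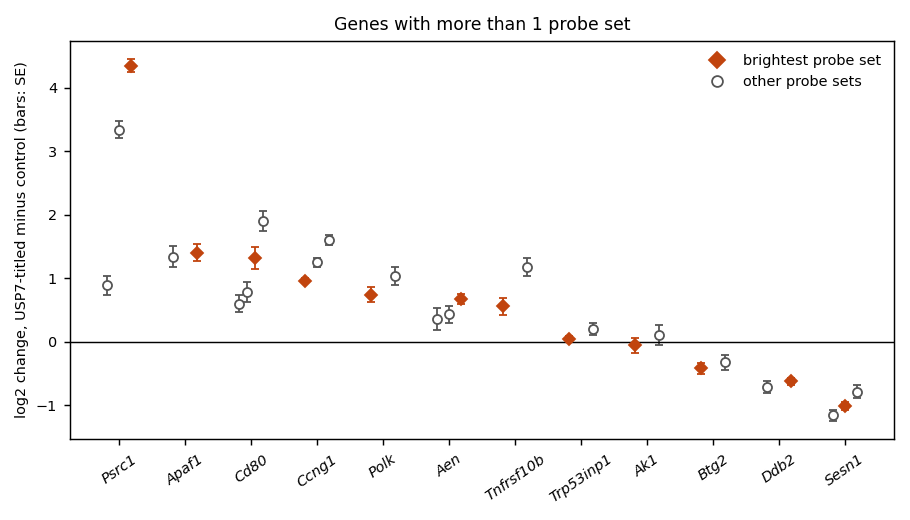
Log2 change, USP7-titled minus control, with SE for every probe set of the 12 p53 target genes that have several; diamonds are the brightest probe set. Only Ak1 has probe sets on both sides of 0, and Psrc1 spreads the most, from 0.89 to 4.35.

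Of 16 measured genes that control p53 (kinases, ligases, cofactors and relatives), 3 rose (18.8%), 4 fell (25.0%) and 9 did not pass, beside 17% higher and 15.9% lower among all genes (median change -0.12). Trp53, the gene of p53 itself, had no probe set carrying its symbol alone, so it was not measured and is not among these 16. The falls include Usp7 itself. Mdm2, the ligase of p53 and also its target, read 11.17, 11.25 and 11.02 in USP7-titled arrays and 10.78, 10.69 and 10.76 in control arrays, a rise of 0.41 (SE 0.07, limma adjusted p = 0.00137). Mdm4, which blocks p53 as a partner of Mdm2, changed by -0.58 (limma adjusted p = 0.000331). The checkpoint kinase genes Chek1 and Chek2 rose by 2.09 and 1.47, and Atm, a kinase that responds to DNA breaks, was at the threshold with -0.33.

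Of 28 other measured genes reported as p53 targets, 9 rose (32.1%), 3 fell (10.7%) and 16 did not pass (median change 0.09). Over all genes 17% were higher and 15.9% lower. Cdkn1a, the cyclin-dependent kinase inhibitor p21, read 11.84, 11.86 and 11.84 in USP7-titled arrays and 7.001, 7.23 and 7.43 in control arrays, a rise of 4.62 (limma adjusted p = 7.36e-10). The next largest rises were Gtse1 (1.78), a microtubule protein of G2 and S phase, the thiamine transporter Slc19a2 (1.59), the cytokine Lif (1.40) and the ribosomal protein paralog Rps27l (1.14). The falls were the epoxide hydrolase Ephx1 (-0.85), the growth factor Tgfa (-0.49) and the immediate early gene Ier5 (-0.41). Tgfa was close to the threshold (limma adjusted p = 0.0478) and its groups overlapped. The stress gene Gadd45a was at -0.01 and did not pass. Sesn2, the paralog of Sesn1, rose by 0.55 (limma adjusted p = 0.00146), opposite in direction to Sesn1.

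**Figure D4:**
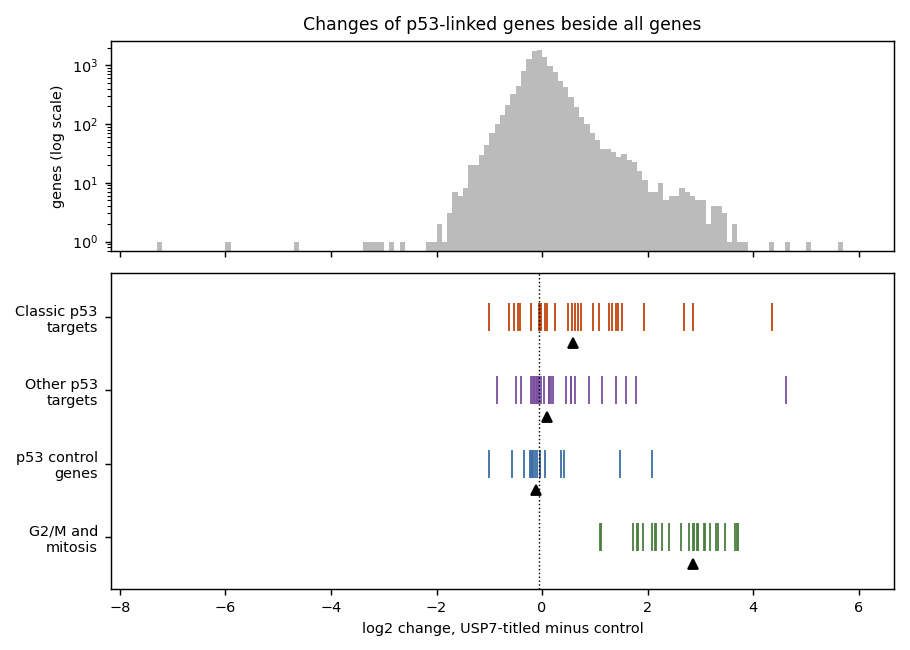
Upper panel, number of genes (log scale) by log2 change, USP7-titled minus control, over all 12393 genes. Lower panel, each line is 1 gene of the classic p53 targets, other p53 targets, p53 control genes or G2/M genes, triangles are medians (0.59, 0.09, -0.12 and 2.85) and the dotted line is the median of all genes.

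Other genes moved in the same arrays, and each list's summed linear level was taken per array. All 27 measured G2/M and mitosis genes rose, with a median change of 2.85, and their sum was 6.31 times the control mean. Psrc1 and Gtse1 are also active in mitosis. Myeloid markers rose in 15 of 22 measured genes and fell in 1. Their sum was 7833 to 9146 in USP7-titled arrays and 3192 to 3715 in control arrays (linear intensity). C1qb rose by 2.86, Lyz1 by 2.48 and C1qc by 2.48, while Cybb fell by 0.52 and Itgam, Cd14 and Cd68 did not pass. CD8 T and NK markers rose in 4 of 11 and fell in 1. Their sum was 13002 to 13842 in USP7-titled arrays and 3747 to 3859 in control arrays. The rises were led by Gzmb (3.29), Gzma (3.21) and Nkg7 (2.76), the fall was Prf1 (-0.45), and Cd8a was at 0.02. B cell markers rose in 1 of 9 and fell in 1, with overlapping sums of 1499.7 to 1632 in USP7-titled arrays and 1474 to 1576 in control arrays. Dendritic markers rose in 3 of 8 and fell in 1, Zbtb46 by 0.96. Their sums were 2208 to 2228 in USP7-titled arrays and 1642 to 1794 in control arrays. These sums follow Bst2, the brightest of the list, which rose by 0.63. Over all genes 17% were higher and 15.9% lower, so the B cell shares (11.1% each way) were below both. These log2 values hold no zero, so no marker can be called absent. The part of these genes, of sex and of cell number in the p53 target changes was not tested. In bulk RNA, fewer cells of a type and less RNA per cell cannot be told apart.

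Summed on the linear scale, arrest genes came to 9992 to 10424 in USP7-titled arrays and 5456 to 5843 in control arrays, and apoptosis genes to 14447 to 15562 in USP7-titled arrays and 9442 to 9562 in control arrays. Repair genes summed to 3605 to 3727 in USP7-titled arrays and 4690 to 4784 in control arrays. Metabolism and signalling genes summed to 2506 to 2764 in USP7-titled arrays and 2791 to 2883 in control arrays. These sums follow the brightest genes. Without Ddb2 the repair sum overlapped between groups, at 1420 to 1654 in USP7-titled arrays and 1424 to 1479 in control arrays. Without Sesn1 the metabolism and signalling sum was 1385 to 1679 in USP7-titled arrays and 579 to 653 in control arrays, higher in the USP7-titled ones. Leaving out these genes was chosen after their values were seen.

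**Figure D5:**
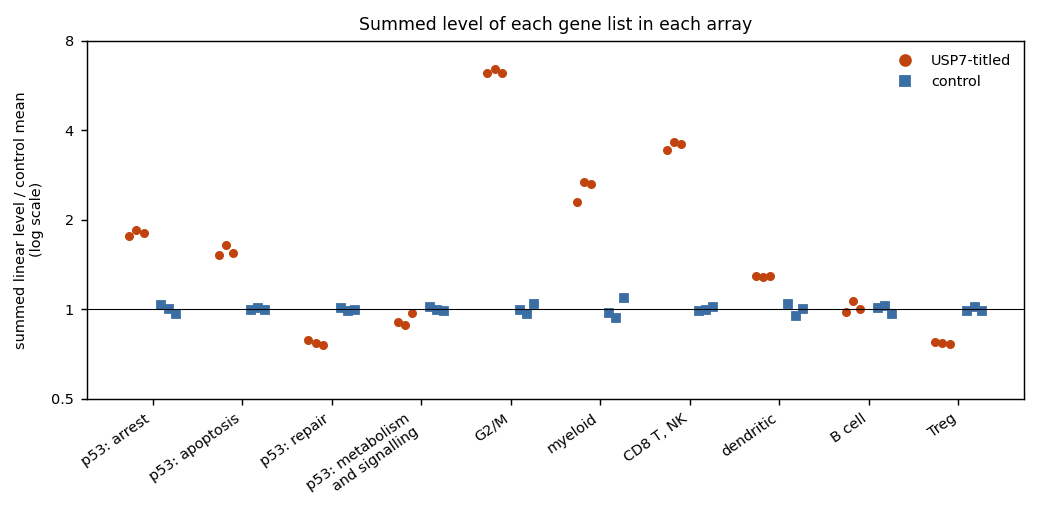
Summed linear level of each gene list in each array, divided by the mean of the 3 control arrays (log scale). Arrest and apoptosis targets of p53 lie above 1 in all 3 USP7-titled arrays, and the repair sum, which follows Ddb2, and the metabolism and signalling sum, which follows Sesn1, lie below 1. The G2/M (6.31 on average), CD8 T and NK (3.55) and myeloid (2.54) lists differ more. The CD8 T and NK sum follows Gzmb and Nkg7 in USP7-titled arrays, and the median change of that list was 0.02.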

How the data were processed

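The authors deposited log2 values per probe set (22690 probe sets, 6 arrays); the log base was inferred from their range, 2.21 to 14.47 over gene probe sets. The sources used here give neither summarisation nor normalization. RNA (100 ng a sample, per the labels' protocols) was amplified and labelled with biotin. Values were used as deposited, without scanner files or detection calls, so dim signals are compressed by background. After 64 array controls were set aside, 20380 probe sets carried 1 gene symbol in the platform annotation, 691 several and 1555 none. The brightest probe set reported each gene, with no filter on low values. By the mean of all arrays, Perp, Tnfrsf23 and Ak1 lay among the dimmest 40% of probe sets.

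The comparison used R 4.3.3 and limma 3.58.1, with lmFit and then eBayes with its trend option, and two-sided p-values. The number of arrays, 3 a group, limits precision; the median residual SD was 0.136. On simulated data for this comparison (12393 genes, 200 changed) 50% of genes shifted by 0.5, 91.5% of those shifted by 1 and 96.8% of those shifted by 2 were found, with 9 false calls. In the real arrays 4078 genes (32.9%) passed, far more than were changed in the simulation. Its shares found and its false calls therefore need not hold for the real arrays. Arrays within a group correlated at 0.992 to 0.996 and none were identical. Deviations from the group mean correlated at 0.08, -0.06 and 0.09 between same-numbered arrays, which cannot settle whether replicate number pairs arrays across groups. The main comparison used no pairing. Members, roles and lists were chosen with earlier results of these data known. Every member is named; members at least 2-fold changed or lower are given per array, and of other p53 genes up to 4 further rises and falls. Members outside that rule and further markers were chosen after their values were seen.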

Additional observations from a re-analysis of the deposited data

How the results depend on the processing

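Alternatives were quantile normalization, median centring, spike scaling, leaving out the dimmest 40% of probe sets, averaging or testing all probe sets, array weights, robust eBayes, eBayes without trend, the replicate block, leaving out X and Y genes, other thresholds, and leaving out each array. Usp7 passed as lower in each, from -1.07 to -0.85. Spike scaling gave 2 p53 targets and 3 other p53 genes lower, and 944 of all 12393 genes, against 1976 as deposited. At an adjusted p under 0.01, 4 other p53 genes were lower and 2695 genes were called in all, against 4078. Requiring at least 2-fold gave 10 higher and 1 lower p53 targets, 7 higher and 1 lower other p53 genes and 539 genes. Leaving out 1 array gave 15 to 16 higher and 4 to 5 lower p53 targets, 11 to 13 higher and 4 to 5 lower other p53 genes, against 7, and 3201 to 4020 genes. In the settings with 2 arrays in a group the spread was pooled over both groups. With the replicate block 16 p53 targets rose and 5 fell, and 4059 genes were called; correlations of same-numbered deviations were 0.08, -0.06 and 0.09. In these settings the 4 genes that changed sign had not passed. Trp53inp1 was at -0.0092 and Ak1 at 0.039 with quantile normalization. Spike scaling put Fas at 0.12, Ercc5 at 0.14 and Ak1 at 0.10. Ak1 was at 0.025 as a mean of probe sets. Array weights put Fas at 0.0088 and Ercc5 at 0.0027. Leave-one-out values ran from -0.108 to 0.0453 for Fas and from -0.0834 to 0.0775 for Ercc5. As a mean of probe sets Tnfrsf10b rose by 0.87 and Psrc1 by 2.86. The causes of these shifts were not tested. The summed linear level, USP7-titled minus control, was -1069 for repair genes and 81.8 without Ddb2, and -220.4 for metabolism and signalling genes and 894 without Sesn1, an alternative chosen after seeing the data. No detection calls were used, so low signal limits Perp, Tnfrsf23 and Ak1, which have no value without the dimmest probe sets. That filter used the mean of all arrays, so a gene high in only 1 group could pass it. Psrc1 passed, but its control arrays read 6.16 to 6.29, near those of Ak1 (6.02 to 6.18). Low signal therefore also limits the control level of Psrc1 and the size of its rise.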
